A study of Mus musculus with 171 samples.

Results

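The 44 genes described here are the mouse cytokines, chemokines and their receptors that a spotted 2-colour array measured by a probe of a single gene. Members were all genes whose platform symbol began with Il, Ccl, Ccr or Csf and a number, or with Cxcl, Cxcr, Tnf or Ifn. They were 44 of the 5755 named genes, on 51 of the 8734 probes. Where a gene had several probes, the one measured on the most arrays was used. They comprised 9 interleukins, 7 interleukin receptor chains, 8 CC chemokines, 4 CXC chemokines, 2 chemokine receptors, 3 ligands and 5 receptors of the tumour necrosis factor (TNF) superfamily, 3 TNF-induced proteins, 1 receptor chain for colony stimulating factors and 2 interferon receptor chains.

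The study compared RNA of 88 mouse tissue or cell sources with a universal mouse reference RNA on 171 arrays. There were 2 arrays for 83 sources and 1 array for 5, and 5137 to 8658 of the probes had a value on an array. The sources compared below were adult spleen of strain C57, normal adult thymus, unstimulated lymph node, lymph node stimulated with Complete Freund's Adjuvant, and blood mononuclear cells (PBMC) separated on ficoll. They also included normal, acutely arthritic and chronically arthritic synovium, adult kidney and kidney of strain FVB/N after toxic injury by folic acid, adult fed liver, liver 6 h and 24 h into regeneration, and liver 6 h after sham surgery. The last were ileum after short bowel resection or its sham operation, lactating and involuting mammary gland, 10 tumours of the duodenum or jejunum, 4 tumours of the colon, and normal intestine: duodenum, proximal jejunum and a further proximal jejunum labelled 46 and WT for the small intestine, and cecum, proximal colon and distal colon for the large intestine. Levels are also described in further sources, among them P14 liver, control heart and heart with the hyperdynamic transgene. Others were uterus at estrus and in pregnancy, hair in anagen and catagen, and activated CD4+ T cells. Strains, ages and sexes not named here, the way arthritis was induced and the origin of the tumours were not analysed. Whether a source's 2 arrays are separate animals is not labelled. The p-values of most comparisons thus cover the spread between arrays only, and that spread may be technical. The lymphoid and tumour comparisons took a mean per source, so their p-values cover the spread between sources.

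A level is given as the log2 ratio of tissue to reference after subtracting the median of its array. The authors had centred each probe over all arrays, so 0 is the usual level of that probe, and levels of different genes cannot be set against each other. The log base and the direction of the ratio are the likely reading and are not stated in the sources used here. A gene is called where limma's adjusted p, corrected over all tested probes, was under 0.05, and an error after ± is the standard error of that fit unless given as SD. Array medians lay between -0.919 and 0.236, so each call was also made on the values as deposited and after quantile normalization. In bulk tissue, fewer cells of a type and less RNA per cell cannot be told apart.

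Chemokines are small secreted proteins that attract white blood cells through receptors of the G protein-coupled class. Interferons and many interleukins, though not all, signal through receptors that recruit Janus kinases and STAT transcription factors. The interleukin-1 and TNF families signal mostly to NF-kB, a transcription factor that switches on many inflammatory genes. Ccl19 and Cxcl13 are made by stromal cells of lymphoid organs and place T cells and B cells in their zones. Il1r1 encodes the signalling receptor of interleukin-1, and Ccl12 encodes a ligand of Ccr2, the receptor by which monocytes leave the blood.

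RefSeq promoter windows of assembly GRCm38.p6 were found for 35 of the 44 genes, in 46 windows of 300 bases. The 250 bases before the annotated start are shown for Il1r1, the member with the largest changes in operated and regenerating liver, which has a pair of starts. They are also shown for Cxcl13 and Ccl12, chemokines that were higher in acute arthritis. Each is written 5′ to 3′, and capitals mark a match to the NF-kB consensus or to TATAAA on either strand.

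Il1r1, chr1:40224830-40225079, plus strand: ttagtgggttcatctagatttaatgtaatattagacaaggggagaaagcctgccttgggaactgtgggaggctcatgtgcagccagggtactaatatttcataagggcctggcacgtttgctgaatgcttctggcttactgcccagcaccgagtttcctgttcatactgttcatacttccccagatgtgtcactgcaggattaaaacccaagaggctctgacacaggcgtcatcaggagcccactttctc
Il1r1, chr1:40266336-40266585, plus strand: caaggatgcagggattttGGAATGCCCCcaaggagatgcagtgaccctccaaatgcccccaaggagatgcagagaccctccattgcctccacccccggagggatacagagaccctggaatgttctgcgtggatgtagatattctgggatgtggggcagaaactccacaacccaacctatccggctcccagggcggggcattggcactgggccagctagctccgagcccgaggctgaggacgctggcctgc
Cxcl13, chr5:95956689-95956938, plus strand: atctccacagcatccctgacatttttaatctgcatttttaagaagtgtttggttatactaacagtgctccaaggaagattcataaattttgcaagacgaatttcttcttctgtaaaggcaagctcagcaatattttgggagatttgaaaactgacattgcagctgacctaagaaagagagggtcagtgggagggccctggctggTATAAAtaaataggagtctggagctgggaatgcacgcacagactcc
Ccl12, chr11:82101595-82101844, plus strand: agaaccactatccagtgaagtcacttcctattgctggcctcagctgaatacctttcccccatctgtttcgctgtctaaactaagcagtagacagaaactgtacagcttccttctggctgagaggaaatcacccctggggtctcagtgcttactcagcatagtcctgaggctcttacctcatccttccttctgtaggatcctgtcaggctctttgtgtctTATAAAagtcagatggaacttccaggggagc

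The downstream Il1r1 window held an NF-kB match, the upstream one held none of the 4 motifs searched, and both chemokine windows shown held TATAAA near the start. Cxcl12, Ccl6 and Ccl4 are chemokines that were also higher in acute arthritis. The windows of Cxcl12 and Ccl6 held none of the 4 motifs, and no window was found for Ccl4. The NF-kB consensus was matched in 5 of the members' 46 windows (10.9%; Il1r1, Ccl27a, Il16, Tnfrsf9 and Tnfaip2) and in 8.46% of all 32851 windows. TTCNNNGAA, the site bound by activated STATs, was matched in 7 member windows (15.2%) and in 8.3% of all windows. TTTCNNTTTC, a form of the interferon response element, was matched in 5 member windows (10.9%) and in 3.44% of all windows. TATAAA was matched in 6 member windows (13%) of 5 genes (Cxcr4, Cxcl9, Cxcl13, Ccl12 and Il33) and in 13.6% of all windows. Both strands were searched and matches may overlap. A match describes the letters only.

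All 43 members that could be tested, all but Ccl22, differed between sources, as did 100% of the probes tested on the array (8445 of 8449). The share of a member's variance that lay between sources was 0.778 at the median, and 0.80 over all probes. It was highest for Ifngr1 (0.937), the ligand-binding chain of the interferon gamma receptor, Ccl6 (0.934), Ccl27a (0.917), Il1r1 (0.916) and Cxcl12 (0.915). It was lowest for Tnfrsf9 (0.473), the T cell costimulatory receptor 4-1BB. Of the 44 members, 18 had their highest mean in 1 of the 6 immune sources, 6 in the 26 intestinal sources and 5 in the 6 liver sources. On the values as deposited, 25 had it in an immune source. Where all probes of the array had their highest mean was not counted, so these counts are not a result about the members. Tnfrsf4, Ccl4, Tnfsf8 and Tnfrsf9, among the 18, had it in activated T cells, a source of 1 array.

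Lymphoid organs led for the chemokines that organise them. Ccl19 was highest in stimulated lymph node, at 3.40 and 5.00 on its arrays, then in unstimulated lymph node at 3.28 and 4.10, and lowest in uterus at estrus (-0.95). Cxcl13 read 1.87 and 3.25 in stimulated and 1.72 and 3.33 in unstimulated lymph node, a difference within the spread between arrays. It was nearly as high in thyroid, at 2.25 ± 0.24 (SD, n = 2). Cxcl9, a chemokine induced by interferon gamma, read 2.85 and 4.32 in stimulated lymph node and 2.41 and 3.89 in brown adipose tissue. Those ranges overlapped. Cxcr4, the receptor for Cxcl12, was highest in unstimulated lymph node (2.46 and 2.76) and thymus (2.46 and 2.49).

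Other members peaked outside the immune sources. Ifngr1 read 2.43 and 2.94 in control heart, 2.38 on average in heart with the hyperdynamic transgene and 2.22 in ventricle, and it was lowest in spleen (-1.67 and -1.47). Ccl6, a chemokine of myeloid cells and mucosa, was highest in distal colon (2.91 and 3.93), sham-operated ileum (3.11) and proximal colon (3.04), and lowest in testes (-1.89). Ccl27a, a chemokine known from skin keratinocytes, was highest in testes (3.08 and 3.12), ahead of hair in catagen (1.57) and anagen (1.46). Its gene overlaps Il11ra1, and a probe may report either. Cxcl12 was highest in P14 liver (3.33 ± 0.02, SD, n = 2) and adult liver (2.61 ± 0.18, SD, n = 2) and lowest in activated CD4+ T cells (-2.20, 1 array). Tnfaip8 was highest in adult kidney (1.78 and 2.39).

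Il17rc, a chain of the interleukin-17 receptor, was highest in sham-operated ileum (1.52 and 2.17). Il6st, the shared signalling chain gp130, was highest in dorsal root ganglion (0.89 and 1.76) and thymus (1.08 and 1.47). Tnfaip6, a secreted hyaluronan-binding protein, was highest in cerebellum, at 0.87 ± 0.01 (SD, n = 2), and lowest in thyroid (-0.98). Il1rap, the co-receptor of Il1r1, peaked in adult liver (1.69 and 1.86), and Tnfaip2 in control heart (1.30 and 1.38). Those tissues also had low array medians, a mean of -0.381 in adult liver and -0.616 in control heart. Il6st, Tnfaip6 and Tnfaip2 instead had their highest mean in an immune source on the values as deposited. Across the 88 sources, the level of Il1rap correlated with the array median at r = -0.71, and at -0.34 on the values as deposited. For Tnfaip2 these were -0.66 and -0.29, for Il1f6 -0.71 and -0.43, and for Il7r -0.66 and -0.35. The sources share a reference. A level is the deposited value minus the array median, so part of its correlation with that median is built in. The values only describe that these levels move with the array median.

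Among the remaining members, Cxcl17, a mucosal chemokine, stood at 4.27 and 4.31 in virgin uterus at estrus, 3.50 on day 4.5 of pregnancy and 2.82 in nasal respiratory mucosa. Il33, an alarmin of epithelial and stromal nuclei, was highest in duodenal tumours, at 2.58 in tumour Duo1 and 2.23 in Duo59 (1 array with an Il33 value each). The single array of activated CD4+ T cells, purified on a column and stimulated with antiCD3 and antiCD28, had the highest Tnfrsf4 (4.72), which encodes the costimulatory receptor OX40. It also had the highest Ccl4 (2.78), Tnfsf8 (2.53) and Tnfrsf9 (2.38) of all sources. With 1 array, none of these 4 levels has a replicate. The Tnfrsf4 gene overlaps Sdf4, and a probe may report either.

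**Figure D1:**
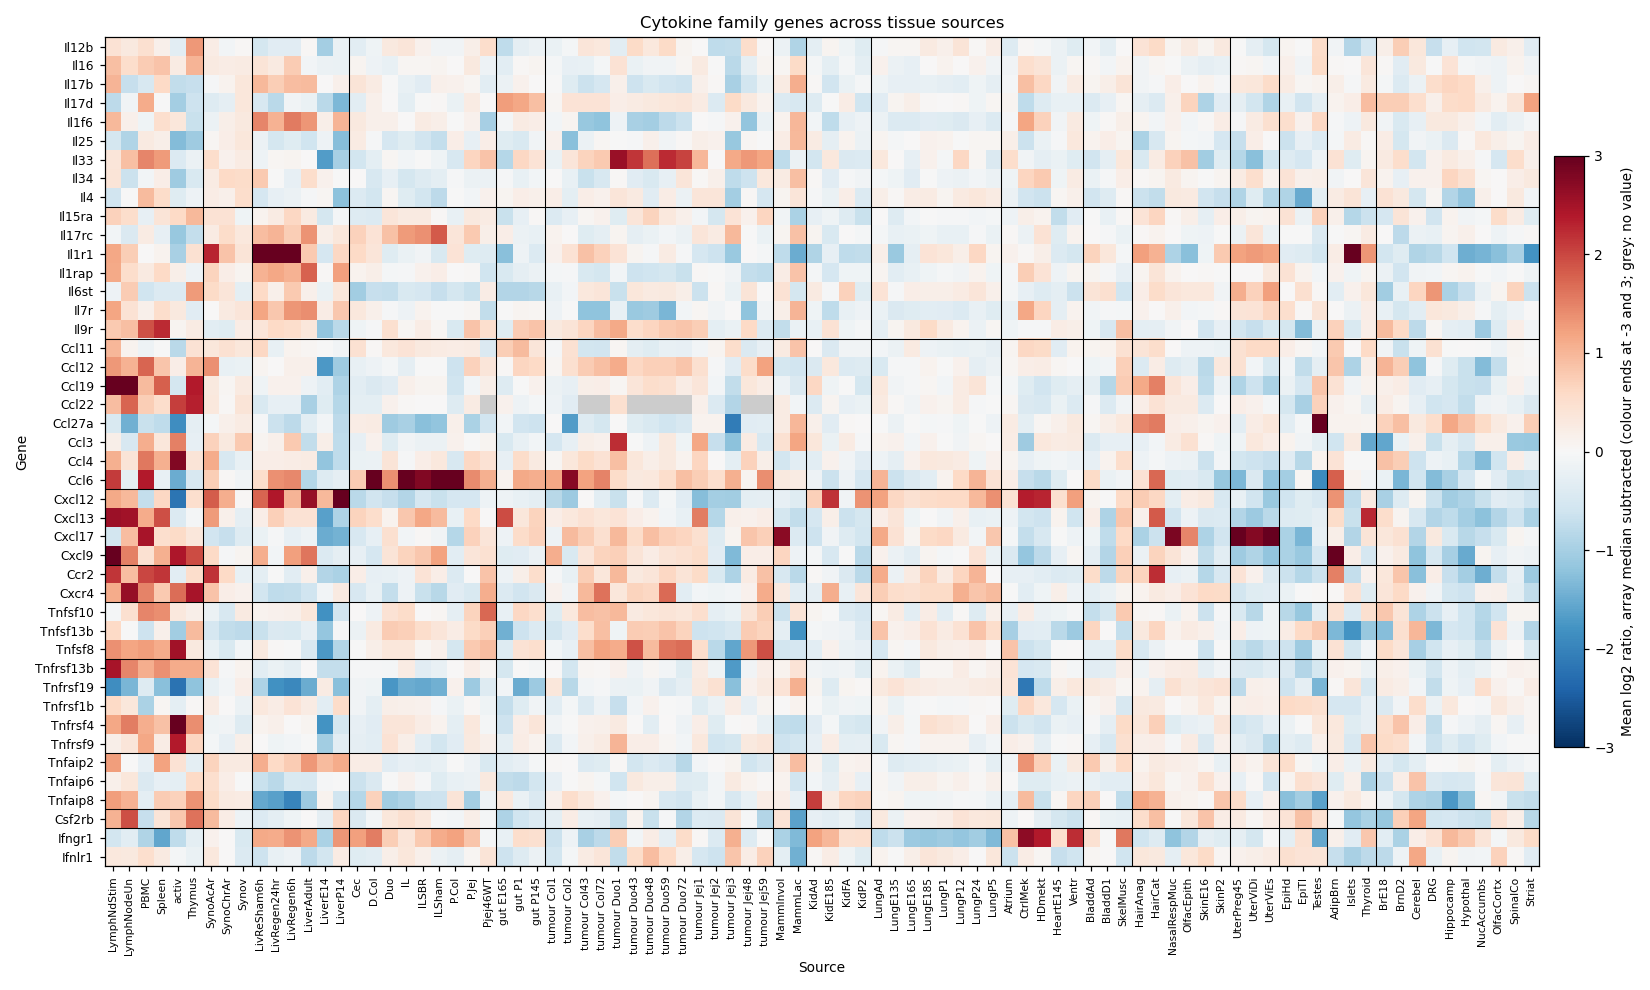
Mean log2 ratio of each member (rows) in each of the 88 sources (columns) after subtracting array medians, in colour from -3 to 3, grey where no value exists. The lymph node columns are high for Ccl19 (3.69 and 4.20), the operated and regenerating liver columns for Il1r1 (3.61 to 4.62), and the uterus columns for Cxcl17 (4.29 at estrus).

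The 4 normal lymphoid sources (spleen, thymus, unstimulated lymph node and PBMC) were compared with 31 sources of other adult organs, taking a mean per source. The 31 include several regions of the nervous system, segments of the intestine, parts of the heart and epididymis, and uterus at different cycle stages. The fit treated them as independent, so its errors and p-values may be too small. Of the 44 members, 21 were called, 18 higher and 3 lower, where 21.3% of all tested probes were called (13.8% higher, 7.51% lower). Over the members the median difference was 0.50, over all probes -0.04. On the values as deposited 18 were higher and 0 lower, and after quantile normalization 12 and 0. In all 3 scalings 12 were higher: both chemokine receptors, Ccl19, Ccl22, Ccl12, Ccl4, Cxcl13, Tnfrsf13b, Tnfrsf4, Tnfsf8, Il9r and Il16.

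Ccl19 ran from 0.95 to 3.69, median 2.09, in the lymphoid sources and from -0.95 to 0.84, median -0.18, in the others, with no overlap. Its difference was 2.32 ± 0.28 (adjusted p = 2.1e-07). Cxcr4 ran from 0.78 to 2.61, median 1.98, and from -0.73 to 0.73, median -0.20, also apart, a difference of 2.01 ± 0.22 (adjusted p = 2.1e-08). The 4 lymphoid sources also stood above all 31 others for Ccl12 (1.37 ± 0.25), Tnfrsf13b (1.34 ± 0.16) and Tnfrsf4 (1.33 ± 0.17). Tnfrsf13b encodes TACI, a receptor of B cells for the survival factor BAFF. Its gene overlaps Usp22 and that of Tnfrsf4 overlaps Sdf4, and a probe may report either gene of a pair.

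Ccr2 ran from 0.53 to 2.13, median 1.47, against -1.47 to 1.50, median -0.25, with overlap, and differed by 1.62 ± 0.34 (adjusted p = 0.00082). Cxcl13 ran from -0.05 in thymus to 2.53 in lymph node and overlapped the others, where thyroid reached 2.25. It differed by 1.54 ± 0.40 (adjusted p = 0.0058), but by an adjusted p of 0.071 without lymph node. Ccl22, a chemokine for regulatory T cells, differed by 1.50 ± 0.24 (adjusted p = 2.1e-05). Il9r, the receptor chain for interleukin-9, ran from 0.24 to 2.24 against -1.29 to 0.90 and differed by 1.43 ± 0.29 (adjusted p = 0.00048). The lower members were Ifngr1 (-1.18 ± 0.42, adjusted p = 0.042), Ccl27a (-1.01 ± 0.36, adjusted p = 0.04) and Il17b (-0.51 ± 0.17, adjusted p = 0.031). None of the 3 was called on the other scalings, and each of these calls ended when lymph node or PBMC was left out, as did those of Ifngr1 and Ccl27a without spleen and that of Il17b without thymus.

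Markers checked the labels. All 5 measured B cell markers were higher in the lymphoid sources (median difference 1.86, source means 0.52 to 3.69 against -0.53 to 1.20), and 1 of 2 T cell, 3 of 7 macrophage and 2 of 6 neutrophil markers were. Their part in the result was not tested. Among pathway genes, 4 of 8 NF-kB genes were higher and 0 lower (median 0.60), with Nfkb2 at 1.60 ± 0.29 and Birc3 at 1.44 ± 0.37. JAK-STAT genes were higher in 4 of 13 (median -0.01), led by Stat4 at 2.30 ± 0.53, the STAT of interleukin-12 signalling. Of 4 leukocyte adhesion genes, Itgb2 (2.70 ± 0.23) and Selplg (2.12 ± 0.23) were higher.

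**Figure D2:**
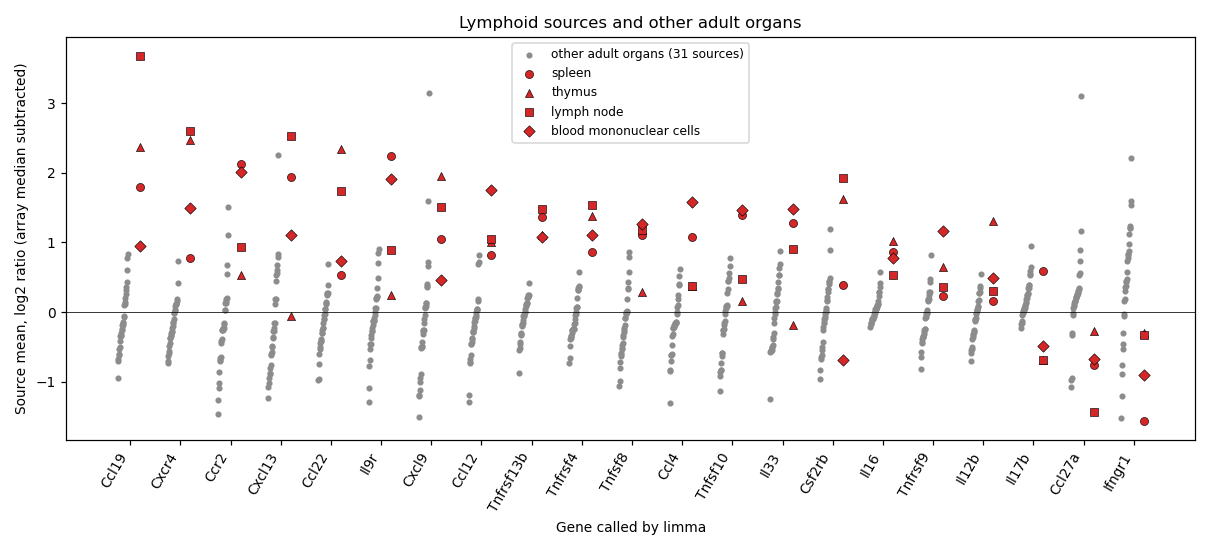
Source means (log2 ratio, array median subtracted) of the 21 called members, with the 4 lymphoid sources and the 31 sources of other adult organs as separate points. The lymphoid points for Ccl19 (0.95 to 3.69) and Cxcr4 (0.78 to 2.61) lie above every other organ, and those for Ifngr1 (-1.57 to -0.30) overlap them.

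Lymph node after Complete Freund's Adjuvant, an emulsion with mycobacterial material that provokes inflammation, was compared with unstimulated lymph node. Of 44 members 13 were higher and 5 lower, 40.9% of them, where 40.8% of all probes were called (23.1% higher, 17.7% lower). These shares are near each other, so the count is not a result about the members. At the median, members differed by 0.23 and all probes by -0.01. In all 3 scalings 9 were higher and 4 lower. Of the members called, Ccl6 and Cxcl9 had the highest differences and Cxcr4 and Cxcl17 the lowest.

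Ccl6 read 2.09 and 2.09 in stimulated and -0.06 and -0.48 in unstimulated node. The arrays were apart, with a difference of 2.36 ± 0.29 (adjusted p = 3.8e-10). Cxcl9 read 2.85 and 4.32 against 0.95 and 2.08, also apart, a rise of 2.07 ± 0.34 (adjusted p = 5.2e-07). The next were Il17b (1.70 ± 0.22) and Tnfaip2 (1.23 ± 0.16), whose second probe differed by 0.22. Ccr2 rose by 1.20 ± 0.37 (adjusted p = 0.0068), from 0.84 and 1.03 to 1.64 and 2.64, and that call ended without stimulated array 2 or unstimulated array 1. Il34, a ligand of the macrophage colony stimulating factor receptor, rose by 1.03 ± 0.23 (adjusted p = 0.00022), a call that ended without stimulated array 1.

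Cxcr4 read 1.10 and 1.15 in stimulated node and 2.46 and 2.76 in unstimulated node. The arrays did not overlap, and it fell by 1.49 ± 0.27 (adjusted p = 5.5e-06). Il6st fell by 0.91 ± 0.21 (adjusted p = 0.0002) and Csf2rb, the shared beta chain of the interleukin-3 and GM-CSF receptors, by 0.90 ± 0.29 (adjusted p = 0.01). Cxcl17 fell by 1.47 ± 0.47 (adjusted p = 0.0089), though not after quantile normalization (adjusted p = 0.056). Ccl22 read 0.54 and 1.31 against 0.96 and 2.52. Its arrays overlapped, with a difference of -0.82 ± 0.28 (adjusted p = 0.013) that shrank to -0.04 without unstimulated array 2. The calls for Csf2rb ended without stimulated array 2 or unstimulated array 2, and those for Cxcl17 and Ccl22 without stimulated array 1 or unstimulated array 2.

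Of 6 neutrophil markers, 5 were higher in stimulated node and 1 lower, with array means of 0.89 to 1.03 against -0.45 to 0.12. Erythroid markers were higher in 4 of 6, fibroblast in 4 of 8, macrophage in 3 of 7 and B cell in 1 of 5. Their part in the result was not tested. JAK-STAT genes fell in 6 of 13 and rose in 1 (median -0.11), with Jak1 at -1.68 ± 0.23, Jak2 at -1.49 ± 0.24 and Socs2 at -1.38 ± 0.24. Of 10 interferon response genes, Irf1 (1.07 ± 0.21) and Gbp2 (1.09 ± 0.34) rose.

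Thymus and PBMC were each compared with the same spleen arrays, so both share any deviation of spleen. In thymus, 11 members were higher and 13 lower, 54.5% of the 44, where 59.5% of all probes were called (32.6% higher, 26.9% lower). A share near that of all probes is not a result about the members. The members' median difference was -0.14, against 0.06 for all probes. In all 3 scalings 7 were higher and 9 lower.

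Thymus was above spleen in Ccl22, which read 1.99 and 2.69 against 0.53 on the 1 spleen array with a value, and differed by 1.81 ± 0.34 (adjusted p = 4.1e-06). Cxcr4 read 2.46 and 2.49 against 0.73 and 0.83, apart by 1.70 ± 0.27 (adjusted p = 9.1e-08). Il6st (1.67 ± 0.21), Ifngr1 (1.27 ± 0.23), Csf2rb (1.24 ± 0.29) and Il12b, the p40 subunit of interleukin-12 (1.15 ± 0.27), followed. Below spleen stood Il9r, at 0.16 and 0.32 against 2.24 on 1 array (-2.0 ± 0.44, adjusted p = 5.5e-05). Cxcl13 read -0.09 and -0.02 in thymus and 1.41 and 2.46 in spleen, apart, and differed by -1.99 ± 0.37 (adjusted p = 2.8e-06). Ccr2 read 0.42 and 0.64 against 1.43 and 2.84, a difference of -1.60 ± 0.37 (adjusted p = 0.00016) that lost its call without spleen array 1.

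Tnfaip2 differed by -1.5 ± 0.16, while its second probe differed by 0.25. Il33 (-1.46 ± 0.45, 1 spleen array, not called after quantile normalization) and Il17b (-1.28 ± 0.22) completed the lowest 6. Thymus arrays carried AC codes in their titles and spleen arrays AF codes. With the code as a term over all arrays, each of these 12 calls was kept. B cell markers were lower in 5 of 5 (array means 0.52 to 0.79 against 2.53 to 2.98), neutrophil markers lower in 5 and higher in 1 of 6, and erythroid markers lower in 6 of 6. Fibroblast markers were higher in 6 of 8 and T cell markers in 1 of 2, and their part in the result was not tested. JAK-STAT genes were higher in 9 and lower in 1 of 13 (median 0.84), with Jak1 at 2.32 ± 0.23 and Stat3 at 2.16 ± 0.20.

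In PBMC, 6 members were higher and 10 lower than in spleen, 36.4% of the 44, where 41.8% of all probes were called (19.5% higher, 22.4% lower). The split was 2 and 12 on the values as deposited and 2 and 8 after quantile normalization, and 2 and 7 held in all 3. The median difference of all probes moved from 0.02 to -0.13 on the values as deposited. At the median the members differed by -0.09. Ccl6 and Cxcl17 were the 2 higher in all 3 scalings. Ccl6 read 2.36 and 2.38 in PBMC and -0.22 on both spleen arrays, apart, a difference of 2.59 ± 0.29 (adjusted p = 4.5e-12). Cxcl17 read 2.23 and 2.72 against 0.51 on 1 spleen array (1.97 ± 0.58, adjusted p = 0.0043), a call that ended without PBMC array 1. The other 4 higher members were Il17d, Tnfrsf9, Cxcr4 and Ifngr1, with differences from 0.66 to 1.13. Leaving out PBMC array 1 ended each of those 4 calls, as did either spleen array for Cxcr4 and spleen array 1 for Ifngr1.

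The lowest members in PBMC included Tnfaip2 (-1.44 ± 0.16) and Cxcl12, a stromal chemokine, at -1.0 and -0.44 against 0.58 and 0.68 (-1.35 ± 0.29, adjusted p = 7.8e-05). Their second probes did not match: -0.02 for Tnfaip2, and 0.89 for Cxcl12 (adjusted p = 0.031), a call in the opposite direction. Tnfrsf1b, a receptor for TNF, differed by -1.01 ± 0.17, and its second probe by 0.82 (adjusted p = 0.035), again opposite. Tnfaip8 differed by -1.06 ± 0.23 and its second probe by 0.38. Csf2rb (-1.07 ± 0.29) lost its call without spleen array 2, and Il17b was at -1.07 ± 0.22. Neutrophil markers were lower in 5 and higher in 1 of 6 (array means 0.50 to 0.88 against 3.55 to 3.67), fibroblast markers higher in 5 of 8, erythroid markers higher in 2 and lower in 3 of 6, B cell markers higher in 2 and lower in 1 of 5, and macrophage markers lower in 2 of 7. Their part in the result was not tested.

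In synovium, the lining of the joint, acute arthritis raised 12 of 44 members and lowered 0, where 11.7% of all probes were called (11.4% higher, 0.313% lower). The arrays of the groups were apart for all 12. Most called members were apart in each comparison of 2 arrays a group that called any, so being apart adds no support to a call. How many of all probes were apart was not counted. The members' median difference was 0.27, against -0.01 for all probes. The risen genes were the receptors Ccr2, Il1r1, Il1rap, Il6st, Csf2rb and Ifnlr1, the chemokines Cxcl12, Ccl12, Cxcl13, Ccl4 and Ccl6, and Tnfaip6. Calls for Ccl6, Ifnlr1 and Tnfaip6 were lost on the values as deposited, and the other 9 held in all 3 scalings. The split was 9 higher and 0 lower on the values as deposited, and 16 and 2 after quantile normalization.

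Ccr2 read 2.16 on both acute arrays and -0.34 and -0.12 on the normal ones. It rose by 2.39 ± 0.37 (adjusted p = 7.1e-07), and by 2.28 to 2.5 when any 1 array was left out. Ccl12, its ligand, read 1.35 and 1.39 against -0.21 and -0.18, a rise of 1.57 ± 0.39 (adjusted p = 0.0028), and its second probe differed by 0.92. Il1r1 read 2.18 and 2.39 against 0.35 and 0.41, a rise of 1.90 ± 0.31 (adjusted p = 2.4e-06). Its partner Il1rap read 0.60 and 0.75 against 0.07 and 0.09, a smaller rise of 0.59 ± 0.14 (adjusted p = 0.0019), and that call ended without acute array 1.

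Cxcl12 read 1.72 and 1.89 against 0.01 and 0.07, a rise of 1.77 ± 0.29 (adjusted p = 1.6e-06). Its second probe differed by 0.60 (adjusted p = 0.19). Cxcl13, the B cell chemokine, read 1.25 and 1.32 against -0.31 and -0.23, a rise of 1.56 ± 0.37 (adjusted p = 0.0013). Ccl4, an attractant of monocytes and T cells, rose by 1.35 ± 0.35, Csf2rb by 1.09 ± 0.29 and Il6st by 0.88 ± 0.21. The call for Ccl4 ended without normal array 1, and that for Csf2rb without acute array 1 or normal array 2. The Ccl4 gene overlaps the Ccl3 annotation, and a probe may report either. The Ccl3 probe differed by -0.09 (adjusted p = 0.87). The Ccl6 gene lies nearby and overlaps neither. Ccl6 (0.85 ± 0.29), Ifnlr1 (0.72 ± 0.24) and Tnfaip6 (0.52 ± 0.16) lost their calls when any 1 of the 4 arrays was left out.

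In chronic arthritis, compared with the same normal arrays, 2 members were higher and 0 lower, where 5.15% of all probes were called (4.62% higher, 0.533% lower), a share near the members' own. The members' median difference was -0.01 and that of all probes 0.04. The 2 were Cxcl12, at 1.03 and 1.17 (1.06 ± 0.29, adjusted p = 0.013, second probe 0.37), and Il6st, at 0.31 and 0.42 (0.66 ± 0.21, adjusted p = 0.04). Cxcl12 was called in all 3 scalings and Il6st was not called on the values as deposited, and both calls ended when any 1 of the 4 arrays was left out. The split was 1 and 0 on the values as deposited, and 2 and 1 after quantile normalization.

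Compared directly, acute arthritis was above chronic arthritis in 4 members and below in 0, where 0.938% of all probes were called (0.81% higher, 0.127% lower). All 4 were called in all 3 scalings. Ccl4 read 1.10 and 1.15 against -1.02 and 0.07, a difference of 1.60 ± 0.35 (adjusted p = 0.0049). Ccl12 read 1.35 and 1.39 against -0.53 and 0.09, a difference of 1.59 ± 0.39 (adjusted p = 0.018), and its second probe differed by 1.21 (adjusted p = 0.031). Ccr2 read 2.16 on both arrays against 0.44 and 0.74 (1.57 ± 0.37, adjusted p = 0.012). Il1r1 read 2.18 and 2.39 against 0.81 and 0.91 (1.42 ± 0.31, adjusted p = 0.0056). The groups did not overlap for any of them. Each call was lost in at least 3 of the 4 fits that left out an array; chronic array 2 could be left out for Ccl4 and Ccl12, acute array 2 for Il1r1 and none for Ccr2.

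Macrophage markers were higher in 6 of 7 in acute against normal synovium (median 1.63, array means 1.57 to 1.58 against -0.33 to -0.30), in 1 of 7 in chronic (means 0.27 to 0.41), and in 5 of 7 in acute against chronic (median 1.20). Fibroblast markers were higher in 7 of 8 in acute (median 2.01) and in 6 of 8 in chronic synovium (median 1.84), and in 0 of 8 between them. Neutrophil markers were higher in 3 of 6 in each, and B cell markers in 0 of 5. Their part in the result was not tested. Of 8 NF-kB genes, Nfkb2 (1.72 ± 0.27), Bcl3 (1.38 ± 0.32) and Birc3 (1.26 ± 0.24) rose in acute arthritis, and 0 were called in chronic arthritis. JAK-STAT genes rose in 3 of 13 in acute arthritis, with Jak1 at 1.20 ± 0.23 and Stat3 at 0.92 ± 0.20, and in 2 of 13 in chronic, with Jak1 at 1.01 ± 0.23. Ifitm3, an interferon response gene, rose by 1.51 ± 0.21 in acute and by 0.97 ± 0.21 in chronic arthritis. Itgb2, the beta 2 integrin of leukocytes, rose by 1.62 ± 0.31 in acute arthritis.

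**Figure D3:**
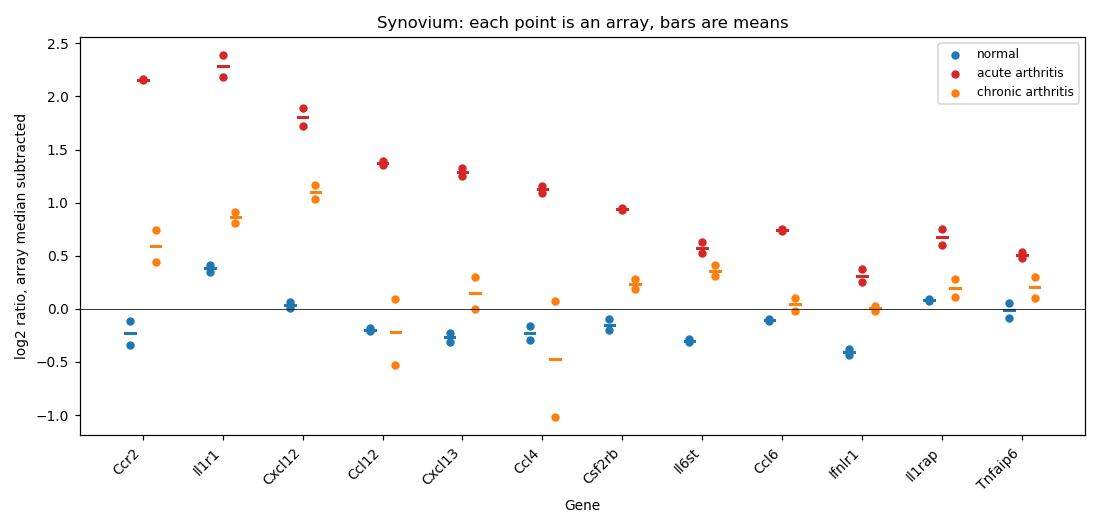
Log2 ratio (array median subtracted) of the members called in synovium on each of the 2 normal, 2 acute and 2 chronic arthritis arrays, 1 point per array. Acute points lie above normal ones for every gene plotted from the acute comparison, Ccr2 at 2.16 against -0.34 and -0.12, and chronic points of Ccr2 (0.44 and 0.74) lie between them.

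In liver, the receptor of interleukin-1 stood out. Il1r1 read 0.77 and 0.81 in adult fed liver, 3.62 and 3.74 at 6 h after sham surgery, 4.49 and 4.76 at 6 h of regeneration and 3.43 and 3.79 at 24 h of regeneration. No array of the operated groups overlapped adult liver. The sham and 24 h livers were each compared with the same adult fed arrays. Il1r1 was 2.89 ± 0.31 higher after sham surgery (adjusted p = 1.1e-11) and 2.82 ± 0.31 higher at 24 h (adjusted p = 2.3e-11). After quantile normalization these were 1.60 and 1.42, still called.

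After sham surgery 4 members were higher and 2 lower, where 11.5% of all probes were called (7.21% higher, 4.32% lower), a share close to the members' own 13.6%. The split was 2 and 6 on the values as deposited, where the median of all probes moved from -0.00 to -0.25, and 2 and 1 after quantile normalization. In all 3 scalings Il1r1 and Ccl6 were higher and Il1rap lower. Ccl6 read 0.49 and 0.55 against -0.87 and -0.82, apart by 1.36 ± 0.29 (adjusted p = 0.00049). Il1rap read 0.96 and 1.14 against 1.69 and 1.86 and fell by 0.73 ± 0.14 (adjusted p = 0.00016), the opposite direction to its partner receptor. Ccl3 (0.81 ± 0.27), Ccl11 (0.55 ± 0.19) and Cxcl12 (-0.85 ± 0.29) were called only after subtracting array medians or, for Cxcl12, also on the values as deposited. Leaving out either adult liver array ended these 3 calls, as did sham array 1, and for Ccl3 and Cxcl12 also sham array 2. The second Cxcl12 probe differed by -0.23 (adjusted p = 0.70).

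At 24 h of regeneration 3 members were higher and 3 lower, where 8.14% of all probes were called (4.87% higher, 3.26% lower). The split was 2 and 7 on the values as deposited, where the median of all probes moved from -0.04 to -0.24, and 2 and 0 after quantile normalization. Il1r1 and Ccl6 were higher in all 3. Ccl6 read 1.37 and 1.40 against -0.87 and -0.82, apart by 2.23 ± 0.29 (adjusted p = 6e-09). Cxcl9 read -0.15 and -0.03 against 1.35 and 1.85, a fall of 1.69 ± 0.34 (adjusted p = 0.00018), with an adjusted p of 0.058 after quantile normalization. Ccl3 differed by 0.89 ± 0.27, Il1rap by -0.61 ± 0.14 and Tnfaip2 by -0.69 ± 0.16. The second Tnfaip2 probe differed by -0.16 (adjusted p = 0.78). The call for Ccl3 ended without any 1 of the 4 arrays, and those for Il1rap and Tnfaip2 without adult array 2 or regeneration array 2.

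Regeneration at 6 h was compared with sham surgery at 6 h, where 5.45% of all probes were called (2.25% higher, 3.21% lower). A share near that, 3 members (6.82%), was called, 1 higher and 2 lower. None held in all 3 scalings: the split was 0 and 5 on the values as deposited, where the median of all probes moved from 0.02 to -0.11, and 0 and 0 after quantile normalization. Ccl6 read 1.33 and 1.55 against 0.49 and 0.55 (0.92 ± 0.29, adjusted p = 0.042), Il34 -0.73 and 0.25 against 0.71 and 0.86 (-1.03 ± 0.23, adjusted p = 0.002) and Ccl27a -1.28 and -0.28 against -0.10 and 0.03 (-0.74 ± 0.20, adjusted p = 0.012). The groups were apart for each, but the regeneration arrays of Ccl27a lay further apart than the means of the groups. Without regeneration array 1, Ccl27a differed by -0.24 and Il34 by -0.54, neither called, and both calls also ended without sham array 1. Ccl27a lost its call without sham array 2 as well, and Ccl6 without any 1 array. Il1r1, at 0.94 higher on average in regeneration than sham, was not called.

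Adult fed liver arrays carried AC codes, sham arrays AF codes, and each regeneration group 1 of each. With the code as a term over all arrays, Il1r1 kept its calls (adjusted p = 3.9e-10 after sham and 5.9e-11 at 24 h), and Ccl6 at 6 h lost its (adjusted p = 0.062). Hepatocyte markers were high in all livers (array means 7.05 to 8.62), with 1 of 2 higher after sham surgery and at 24 h, while macrophage markers were called in 0 of 7 after sham and higher in 1 of 7 at 24 h. Neutrophil markers were called in 0 of 6 after sham and higher in 1 of 6 at 24 h. The part of any of them in the result was not tested. Stat3, the STAT of interleukin-6 signalling, was 1.25 ± 0.20 higher after sham surgery and 0.83 ± 0.20 higher at 24 h. Bcl3, an NF-kB cofactor, was 1.48 ± 0.32 and 1.51 ± 0.32 higher, though not in all 3 scalings. After sham surgery 3 of 13 JAK-STAT genes rose, and of 8 NF-kB genes 2 rose and 1 fell, while 0 of either list was called between regeneration and sham at 6 h.

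**Figure D4:**
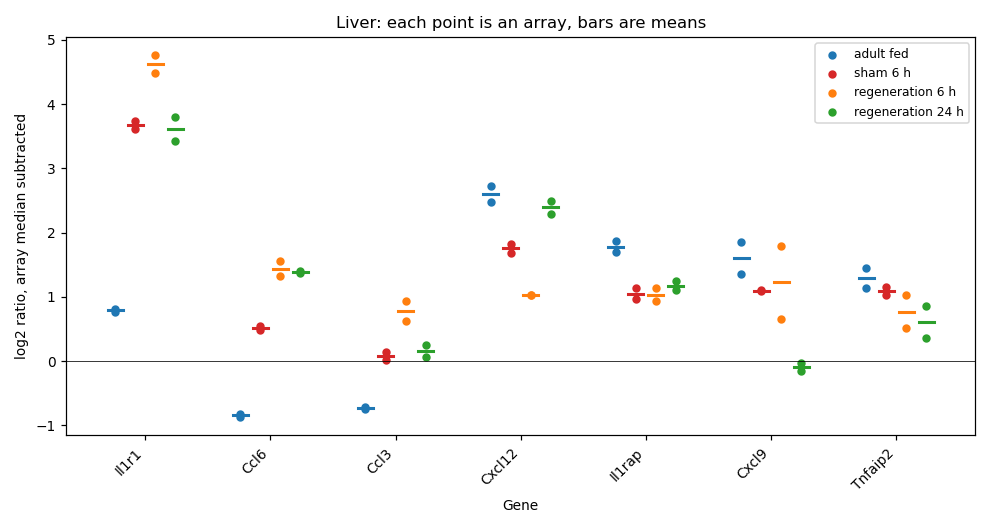
Log2 ratio (array median subtracted) of Il1r1, Ccl6, Ccl3, Cxcl12, Il1rap, Cxcl9 and Tnfaip2 in liver, 1 point per array. The groups are adult fed, sham 6 h, regeneration 6 h and regeneration 24 h, with 2 arrays each. Ccl11, Il34 and Ccl27a, also called in liver, are not plotted. Il1r1 lies at 0.77 and 0.81 in adult fed liver and between 3.43 and 4.76 in the other 3 groups, and Il1rap runs the other way.

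Folic acid injury of the kidney, a model of acute tubular damage, lowered 2 of 44 members and raised 0, where 7.7% of all probes were called (3.65% higher, 4.05% lower), a share above the members' own. The members' median difference was -0.05 and that of all probes -0.03. Tnfaip8, an inhibitor of apoptosis, read 0.49 and 0.78 in injured kidney and 1.78 and 2.39 in adult kidney, with no overlap. It fell by 1.45 ± 0.23 (adjusted p = 1.1e-06) in all 3 scalings, by 1.14 to 1.75 with any 1 array left out, and its second probe differed by -0.68 (adjusted p = 0.016). Ifngr1 read 0.40 and 0.55 against 1.10 and 1.31 (-0.73 ± 0.23, adjusted p = 0.034), a call lost on the other scalings and with any 1 array left out. The split was 0 and 1 on the values as deposited, where the median of all probes moved from -0.03 to 0.09, and 1 and 2 after quantile normalization. The strain of the adult kidney is not given, so injury and strain cannot be told apart.

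In the same kidneys 2 of 8 NF-kB genes were higher, Bcl3 by 2.33 ± 0.32 and Nfkb2 by 1.00 ± 0.27, and Stat3 was 1.31 ± 0.20 higher. Macrophage markers were higher in 2 of 7 and neutrophil markers in 1 of 6, and their part was not tested. In ileum after short bowel resection against the sham operation, limma called 0 of 44 members, where 0.15% of all probes were called (0.0695% higher, 0.081% lower), and 3 had an unadjusted p under 0.05 (Il17b, Il17rc and Tnfaip6). The members' differences ran from -0.49 to 0.35. Il17rc read 0.94 and 1.83 after resection and 1.52 and 2.17 after sham, so its arrays overlapped.

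In mammary gland, involution, the regression after weaning, was compared with lactation. Called were 24 members, 11 higher and 13 lower, 54.5% of the 44, where 55.3% of all probes were called (26.6% higher, 28.7% lower), a share near that of all probes. The split depended on the scaling: it was 13 higher and 3 lower on the values as deposited, where the median of all probes moved from -0.09 to 0.23, and 4 and 5 after quantile normalization. Array medians averaged -0.270 in lactating and 0.047 in involuting gland. In all 3 scalings 4 members were higher (Cxcl17, Csf2rb, Il6st and Cxcl9) and 1 lower (Il17b).

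Cxcl17 read 2.69 and 2.70 in involuting and -0.60 and -0.22 in lactating gland, apart. It rose by 3.11 ± 0.47 (adjusted p = 8.4e-08), and by 3.42 and 3.75 on the other scalings. Csf2rb read 0.33 and 0.47 against -1.69 and -1.52, a rise of 2.01 ± 0.29 (adjusted p = 2.7e-08). Il6st, through which leukaemia inhibitory factor signals, read 0.40 and 0.47 against -0.68 and -0.36, a rise of 0.96 ± 0.21 (adjusted p = 9e-05). Cxcl9 rose by 0.79 ± 0.34 (adjusted p = 0.039), a call that ended when any 1 of the 4 arrays was left out. Il17b read 0.21 and 0.27 against 0.98 and 1.19 and fell by 0.84 ± 0.22 (adjusted p = 0.0008).

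Higher after subtracting array medians and on the values as deposited, but not after quantile normalization, were Tnfsf13b, which encodes BAFF (1.54 ± 0.29), Ifnlr1 (1.14 ± 0.24) and Il15ra (0.83 ± 0.24). The other called members with the lowest differences were Tnfsf10 (-1.02 ± 0.35), Il1f6 (-0.88 ± 0.25), Il7r (-0.85 ± 0.24), Il17rc (-0.78 ± 0.20) and Il25 (-0.75 ± 0.22). The call for Tnfsf10 ended without involuting array 1 or lactating array 1. None of these 5 was called on the values as deposited. Tnfaip2 differed by -0.70 ± 0.16, and its second probe by 1.08 (adjusted p = 0.00021), the opposite direction.

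No probe covered the milk protein list, so the lactating label could not be checked by it. Macrophage markers were higher in 4 of 7 in involution (array means 1.24 to 1.25 against -0.23 to -0.08), fibroblast markers in 6 of 8 (0.50 to 0.61 against -1.03 to -0.98), neutrophil markers higher in 2 and lower in 1 of 6, and B cell markers higher in 1 and lower in 2 of 5. Their part in the result was not tested. JAK-STAT genes rose in 6 and fell in 2 of 13 (median 0.31), with Stat3, a known mediator of involution, at 1.64 ± 0.20 and Cish at 1.32 ± 0.25, both in all 3 scalings. NF-kB genes rose in 5 and fell in 1 of 8 (median 0.87).

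**Figure D5:**
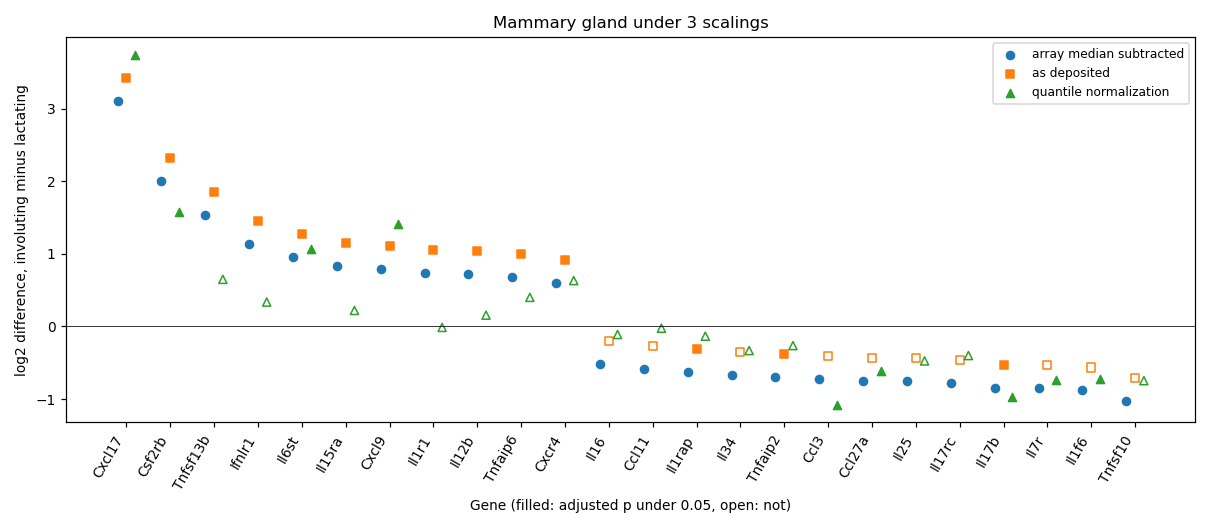
Log2 difference, involuting minus lactating mammary gland, for the called members with array medians subtracted, with the values as deposited and after quantile normalization, filled where called. Cxcl17 lies at 3.11, 3.42 and 3.75 in the 3 scalings, whereas 6 of the 13 members called lower are filled only after subtracting array medians.

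In tumours of the duodenum and jejunum (10 sources) against 3 normal sources, with the form of the array code as a covariate, limma called 0 of 43 members, where 1.05% of all probes were called (0.365% higher, 0.684% lower), and 8 had an unadjusted p under 0.05. The members' median difference was -0.07 and that of all probes -0.04. Il33 ran from 0.01 to 2.58, median 1.48, in the tumours and from 0.05 to 0.84 in normal intestine, 9 of 10 tumours above every normal source. Its difference of 0.87 ± 0.38 did not pass (adjusted p = 0.29). Tnfrsf19, a receptor of intestinal stem cells, ran from -1.25 to 0.45 against -1.75 to -0.38 (0.87 ± 0.31, adjusted p = 0.19). With the jejunum labelled WT left out, the probes called rose from 89 to 543 and the members called to 1; without duodenum or the other jejunum, limma called 0 probes (620 and 666 at an unadjusted p under 0.05). Without tumour Jej3, 2 members were called. Of 10 interferon response genes, Ifitm3 (2.22 ± 0.28) and Ifitm2 (2.14 ± 0.38) were called.

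In 4 colon tumours against 3 normal parts of the large intestine, 1 of 43 members was called, where 8.39% of all probes were (3.83% higher, 4.56% lower). The split was also 0 and 1 on the values as deposited, and 1 and 1 after quantile normalization. The form of the array code was again a covariate, and only tumours Col43 and Col72 had # titles. The fitted differences therefore rest on tumours Col1 and Col2 against the 3 normal sources. Ifngr1 ran from -0.96 to -0.14, median -0.71, in the tumours and from 1.20 to 1.54 in normal cecum and colon, with no overlap. It fell by 1.71 ± 0.19 (adjusted p = 0.0036) in that fit and was called in all 3 scalings. The fall stayed between 1.47 and 1.96 with any 1 source left out, but leaving out Col43 or Col72 could not move it. The second probes of Tnfrsf1b (0.87, adjusted p = 0.022) and Tnfaip8 (-0.98, adjusted p = 0.046) were called, while the probes used differed by 0.03 (adjusted p = 0.94) and 0.27 (adjusted p = 0.71). In the same tumours Ccl27a differed by -1.04 ± 0.40 (adjusted p = 0.15), Cxcl17 by 0.92 ± 0.32 (adjusted p = 0.12) and Ccl12 by 0.61 ± 0.20 (adjusted p = 0.10). None of these passed, although their sources did not overlap. Fibroblast markers were higher in 1 and lower in 2 of 8, neutrophil markers higher in 2 of 6 and enterocyte markers lower in 1 of 6, and their part was not tested.

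Cxcl12 is the ligand of Cxcr4. Its probe was called in 4 comparisons. It was higher in acute (1.77) and chronic (1.06) arthritis, which share normal arrays, and lower in PBMC (-1.35) and after sham surgery of the liver (-0.85). Of these 4, only PBMC called the second Cxcl12 probe, in the opposite direction (0.89, adjusted p = 0.031). Cxcr4 was called in 5: higher in the lymphoid sources (2.01), thymus (1.70), PBMC (0.71) and involuting mammary gland (0.61), and lower in stimulated lymph node (-1.49). By these probes PBMC against spleen called both genes, in opposite directions, though the second Cxcl12 probe went the other way and the Cxcr4 call did not hold on the other scalings. In involuting mammary gland the second Cxcl12 probe was called higher (0.86, adjusted p = 0.0081), the direction of Cxcr4, while the Cxcl12 probe used here differed by 0.11 (adjusted p = 0.77). In acute arthritis Cxcr4 differed by 0.74 (adjusted p = 0.062).

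In all, 6 members had 7 further probes, which gave 103 values over the comparisons. Of these 20 were called: 12 where the probe used was not called, 5 where it was called in the same direction and 3 where it was called in the opposite one.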

How the data were processed

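RNA of each source was hybridised against a universal mouse reference RNA on 2-colour spotted arrays, per the labels. The deposited values are log2 ratios in their likely reading. The authors had centred them per probe: the median of 8709 of 8734 probes lay within 0.001 of 0. The log base, direction, dyes, background correction and normalization are not stated there. Probes were named through the platform annotation: 7540 had 1 symbol, 14 several and 1180 none.

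Each array's median was subtracted. Probes with values on at least 80% of the arrays or sources were fitted with limma 3.58.1 in R 4.3.3 (lmFit, eBayes), on all arrays with 1 mean per source, or on source means for the lymphoid and tumour comparisons, the latter with the form of the array code in the titles (AC on 69, AF on 86 and # on 16 arrays) as covariate. P-values were adjusted by the Benjamini-Hochberg method across every tested probe. With 2 arrays a source, precision is limited by their number. Tables were made with pandas 2.3.3 and numpy 2.4.6 in Python 3.11.15, and figures with matplotlib 3.10.9.

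The members and lists were chosen with earlier results of these data known. Named in each comparison are all called members where there are at most 12, and otherwise the 6 highest and 6 lowest; across sources, the 15 with the largest share of variance between sources; for pathway lists, up to 3 called genes; other names were chosen after their values were seen. Lists held 20 JAK-STAT, 25 NF-kB, 23 interferon response and 14 leukocyte adhesion genes, of which 13, 8, 10 and 4 were tested. Alternatives were other scalings, complete or averaged probes, the code form as a term, the compared arrays alone and leaving out each array or source. On simulated data, 4-fold changes were found in 97% of cases for acute arthritis, 91% for lymphoid sources, 94% for small intestinal and 96% for colon tumours, and 2-fold changes in 70%, 70%, 65% and 55%. The simulated noise was normal and independent between arrays and between sources. For acute arthritis it held no spread between animals beyond that between arrays. These rates may therefore be too high for the real data.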

Additional observations from a re-analysis of the deposited data

Results flagged for a closer look

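Among the members called between lymphoid sources and other organs, 2 of 21 groups of 4 lymphoid sources tested held a source far from the others; chance flags about 1 in 20 such groups. Tnfsf8, the ligand of CD30, was at 0.288 in thymus where the median of the 4 sources was 1.14, and the gap took 0.839 of their range. Il17b was at 0.593 in spleen where the median was -0.58, a gap of 0.841 of the range.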

How the results depend on the processing

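No paired analysis was possible because the labels give the groups no shared replicate numbers. Counts of called members moved by over 1.5 times as follows. On the values as deposited they were 1 in chronic arthritis, 1 in injured kidney and 5 in regeneration at 6 h. After quantile normalization they were 11 in acute against chronic arthritis, 10 in PBMC, 0 in regeneration at 6 h, 3 after sham surgery, 2 in regeneration at 24 h, 9 in mammary gland, 12 in lymphoid sources and 2 in colon tumours. Fitting only the arrays compared, they were 31 in acute, 7 in chronic and 9 in acute against chronic arthritis, 10 in lymph node, 14 of 25 tested in thymus, 7 in PBMC, 0 in kidney, 0 in regeneration at 6 h, 15 after sham surgery and 3 in regeneration at 24 h. Called in all 3 scalings (counted after seeing the data) were 1 in chronic arthritis, 9 in PBMC, 1 in kidney, 0, 3 and 2 in the livers in the order given, 5 in mammary gland and 12 in lymphoid sources. Averaging probes left 1 in chronic arthritis. Complete probes left 4 of 22 tested in lymphoid sources and 16 of 16 differing between sources. Without the code form as covariate 5 were called in colon tumours. With averaged probes Tnfrsf1b in PBMC reversed to 0.044 (adjusted p = 0.83).

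With 1 array or source left out, counts ran from 7 to 9 in acute, 0 to 1 in chronic and 0 to 2 in acute against chronic arthritis, 15 to 17 in lymph node, 15 to 23 in thymus, 8 to 18 in PBMC, 1 to 1 in kidney, 0 to 5 in regeneration at 6 h, 3 to 4 after sham surgery, 3 to 7 at 24 h, 0 to 1 in ileum, 17 to 20 in mammary gland, 15 to 18 in lymphoid sources, 0 to 2 in small intestinal and 1 to 10 in colon tumours. The cause was not tested; a lone array was taken to have the spread of the rest. Of 880 values for named genes under an alternative, 712 kept their direction and side of the threshold, 167 lost the call and 1 reversed. Tumour number as a random block was fitted for the small intestine (consensus correlation -0.127) and could not be fitted for colon tumours, where no number occurs in more than 1 source. Calls lost with the code form as a term were Ccl3 in lymph node, Il4 and Ccl11 in thymus and Ccl6 in regeneration at 6 h.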
